A study of Mus musculus with 8 samples.

Results

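The core proteins of the spliceosome, the machinery that removes introns from messenger RNA, were followed in the retinas of adult mice kept in hyperoxia. The members were the probe sets annotated with a single gene symbol that begins with Snrp, Sf3a, Sf3b, Lsm or Prpf, and the value of a gene was the mean over its probe sets. The rule gave 42 of the 18193 genes with at least 1 such probe set. These genes were measured by 103 probe sets, with 13 of the genes on 1 probe set and the others on up to 7. Total RNA came from whole retinas of C57BL/6J mice of both sexes, aged P80 to P120 and raised in dim cyclic light (5 lux for 12 h a day). Hyperoxic mice spent 3, 7 or 14 days in 75% oxygen, and control mice (day 0) stayed at normal oxygen levels. Each time has 2 biotin-labeled arrays, for 8 in all, and the retinas of each time were pooled before labeling. Whether both arrays of a time hold RNA of different pools is not given in the sources used here. The p-values thus measure only how arrays differ, which may be technical. The deposited values are on the log2 scale and centred on the median of each probe set over the 8 arrays, so they give differences between arrays and no level. Arrays are named here by the time and replicate on their labels. By these labels, the probe sets at opposite ends of *Gapdh* differed by 1.19 on day 3 replicate 2 and 1.43 on day 14 replicate 2 (centred log2 values), against -0.32 to 0.12 on the other arrays. The quality table of the study, which compares the same transcript ends, instead sets apart both arrays of the last time and neither of the first time in hyperoxia. The labels of day 3 replicate 2 and day 14 replicate 1 are thus in doubt, no array was moved to another time, and results without these 2 arrays are given beside some of those they bear on. For lack of a level, neither the retinal origin of the RNA nor the absence of other cells could be checked from levels of marker genes. Genes of lens, cornea and pigment epithelium did differ between the arrays, and their values are given below. In whole tissue, fewer cells of a type and less RNA per cell cannot be told apart.

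The spliceosome forms anew on each intron from small nuclear ribonucleoproteins (snRNPs), each made of a short RNA and a set of proteins. The Sm proteins close a ring around the U1, U2, U4 and U5 RNAs, and the LSM proteins close a similar ring around the end of the U6 RNA. SF3A and SF3B belong to the U2 snRNP and hold the branch point of the intron, and many PRPF proteins belong to the tri-snRNP of U4, U6 and U5 that brings in the parts of the catalytic centre. Photoreceptors are known to depend on this machinery, since dominant mutations of human PRPF3, PRPF4, PRPF6, PRPF8 and PRPF31 cause retinitis pigmentosa. Sorted by role, the members comprised 6 Sm ring genes, 3 other genes of the U1 and U2 snRNPs, 3 SF3A genes, 6 SF3B genes, 6 U6 LSM ring genes, 6 other LSM genes, 5 tri-snRNP PRPF genes and 7 other PRPF genes. The name "core spliceosome" does not hold for the 6 other LSM genes. *Lsm1* belongs to a cytoplasmic ring that acts in messenger RNA decay, *Lsm10* and *Lsm11* belong to the U7 particle that processes histone messenger RNAs, and *Lsm12*, *Lsm14a* and *Lsm14b* are not parts of the splicing machinery.

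Promoter sequences are shown for 8 members because these genes stand at both ends of the differences described below, with the ring genes *Snrpe*, *Snrpg* and *Lsm3* and the U2 protein gene *Sf3b6* on the side of higher values and *Prpf8*, *Prpf4*, *Prpf38b* and *Prpf39* on the side of lower values. Each line gives the 120 bases before the annotated start of the gene, from RefSeq on build GRCm38.p6, read in the direction of the gene. Capitals mark matches on either strand to 5 motifs. The ETS core, bound by a large family of activators, was searched as CCGGAAG. The GC box, bound by Sp factors, was searched as GGGCGG. The CCAAT box was searched by the letters of its name and the TATA box as TATAAA. The core of the hypoxia response element, which the HIF factors of oxygen sensing bind, was searched as GCGTG alone. Other forms of this core are neither marked nor counted here.
Snrpe (chr1:133610281-133610400, minus strand): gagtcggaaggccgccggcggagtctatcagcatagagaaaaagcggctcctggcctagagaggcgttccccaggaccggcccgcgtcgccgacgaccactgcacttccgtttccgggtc
Snrpg (chr6:86371420-86371539, plus strand): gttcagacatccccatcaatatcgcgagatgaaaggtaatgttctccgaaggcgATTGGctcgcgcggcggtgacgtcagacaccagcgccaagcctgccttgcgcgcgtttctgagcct
Lsm3 (chr6:91515915-91516034, plus strand): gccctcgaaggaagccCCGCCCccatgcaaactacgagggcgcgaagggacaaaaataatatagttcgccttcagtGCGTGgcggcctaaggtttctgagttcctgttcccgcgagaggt
Sf3b6 (chr12:4817488-4817607, plus strand): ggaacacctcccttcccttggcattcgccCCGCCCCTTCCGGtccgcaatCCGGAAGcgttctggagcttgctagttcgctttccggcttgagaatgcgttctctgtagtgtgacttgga
Prpf8 (chr11:75486657-75486776, plus strand): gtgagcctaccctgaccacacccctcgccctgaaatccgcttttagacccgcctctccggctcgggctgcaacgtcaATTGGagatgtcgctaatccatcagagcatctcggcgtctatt
Prpf4 (chr4:62408663-62408782, plus strand): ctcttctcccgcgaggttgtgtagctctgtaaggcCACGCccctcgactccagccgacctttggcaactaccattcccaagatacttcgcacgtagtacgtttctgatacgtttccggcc
Prpf38b (chr3:108911730-108911849, minus strand): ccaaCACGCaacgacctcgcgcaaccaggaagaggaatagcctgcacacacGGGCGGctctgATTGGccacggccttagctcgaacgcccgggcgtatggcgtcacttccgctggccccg
Prpf39 (chr12:65036214-65036333, plus strand): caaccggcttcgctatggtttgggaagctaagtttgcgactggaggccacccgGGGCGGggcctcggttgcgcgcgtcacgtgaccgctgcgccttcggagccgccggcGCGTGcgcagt

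No TATA box lay in these 8 windows, and the window of *Snrpe* held none of the motifs. *Sf3b6* held the ETS core in both directions beside a GC box, *Lsm3*, *Prpf38b* and *Prpf39* each held a GC box and the hypoxia response core, *Prpf4* held the hypoxia response core alone, and *Snrpg*, *Prpf8* and *Prpf38b* held a CCAAT box read from the other strand. RefSeq promoters were matched by symbol for 35 of the 42 members, which have 44 promoters between them. Over the 250 bases before the start, the ETS core was present in 29.5% of the 44 member promoters, against 6.91% of all 32851 promoters. The hypoxia response core was present in 65.9% of member promoters and 28.2% of all promoters, the GC box in 45.5% and 32.7%, the CCAAT box in 40.9% and 33.8%, and the TATA box in 4.55% and 12.4%. The hypoxia response core was in 13 of 15 ring promoters and 8 of 14 PRPF promoters, and the ETS core in 1 of 15 and 3 of 14. No matches share a letter in these windows. The bases G and C made up 55.8% to 70% of the 8 windows shown, and the promoters compared were not matched for this share. The motifs were picked after earlier results of these data were known, and a match of letters is not a bound site.

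Over the whole machinery, the differences from control were small and pointed both ways. At day 3 of hyperoxia, 25 members were higher and 17 lower than at day 0, with a median difference of 0.070 on the log2 scale, against 0.057 over all genes. At day 7, 14 were higher and 28 lower (median -0.075, against -0.0065 over all genes), and at day 14, 26 were higher and 16 lower (median 0.085, against 0.079 over all genes). The share of higher members was 59.5%, 33.3% and 61.9% at days 3, 7 and 14, against 59.2%, 48.1% and 64.0% of all genes. All 3 comparisons use the same day 0 arrays.

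In limma with Benjamini-Hochberg adjustment over all genes, 0 members passed an adjusted p of 0.05 at any time, as did 0% of all genes. Leaving out day 3 replicate 2 and day 14 replicate 1, there were also 0 members and 0% of all genes at days 3 and 14, with 17 members at an unadjusted p under 0.05 at day 3 (21.1% of all genes) and 13 at day 14 (19.3%). The lowest adjusted p of a member was 0.427 at day 3, 0.9998 at day 7 and 0.615 at day 14. At an unadjusted p under 0.05, 6 members were higher at day 3 (*Lsm7*, *Lsm3*, *Snrpe*, *Snrpg*, *Sf3b6* and *Snrpb2*), where 6.38% of all genes were. On the lower side there were 3 (*Prpf38b*, *Prpf4* and *Prpf8*), where 4.61% of all genes were. At day 7 there were 0 members in either direction, with 0.341% of all genes higher and 0.456% lower. At day 14 there were 0 higher, with 4.45% of all genes, and 3 lower (*Prpf18*, *Prpf38b* and *Prpf38a*), with 3.56% of all genes. The methods' test was rerun as a plain analysis of variance of each time against control, without the study's error model across genes. It used the deposited values of all genes, while the study used MAS5 values of genes that met its 2-fold criterion. Before adjustment it gave 1 member at day 3 (*Lsm7*, higher, where 4.58% of all genes were higher and 2.58% lower). It gave 0 members at day 7 (1.42% and 1.47%), and *Snrpc*, higher, and *Prpf38b*, lower, at day 14 (4.73% and 2.50%). After adjustment it gave 0 members at each time.

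A count that needs no estimate of variance was also made. Both arrays of day 3 lay above both day 0 arrays for 13 of 42 members (28.2% of all genes) and below them for 7 (16.1%). At day 7 the counts were 2 above (*Lsm7* and *Prpf19*; 12.1% of all genes) and 5 below (*Sf3a1*, *Sf3a2*, *Snrpb2*, *Lsm10* and *Prpf31*; 13.1%). At day 14 they were 16 above (33.5%) and 8 below (15.2%). The counts at days 3 and 14 were close to the background of all genes. A difference of 2-fold or more was reached by *Lsm3* at day 3, higher (0.451% of all genes were 2-fold higher and 0.418% lower), and by *Prpf39* at day 14, lower (0.346% of all genes were 2-fold lower and 0.335% higher). At day 7, 0 members reached it (0.126% of all genes higher and 0.132% lower).

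**Figure D1:**
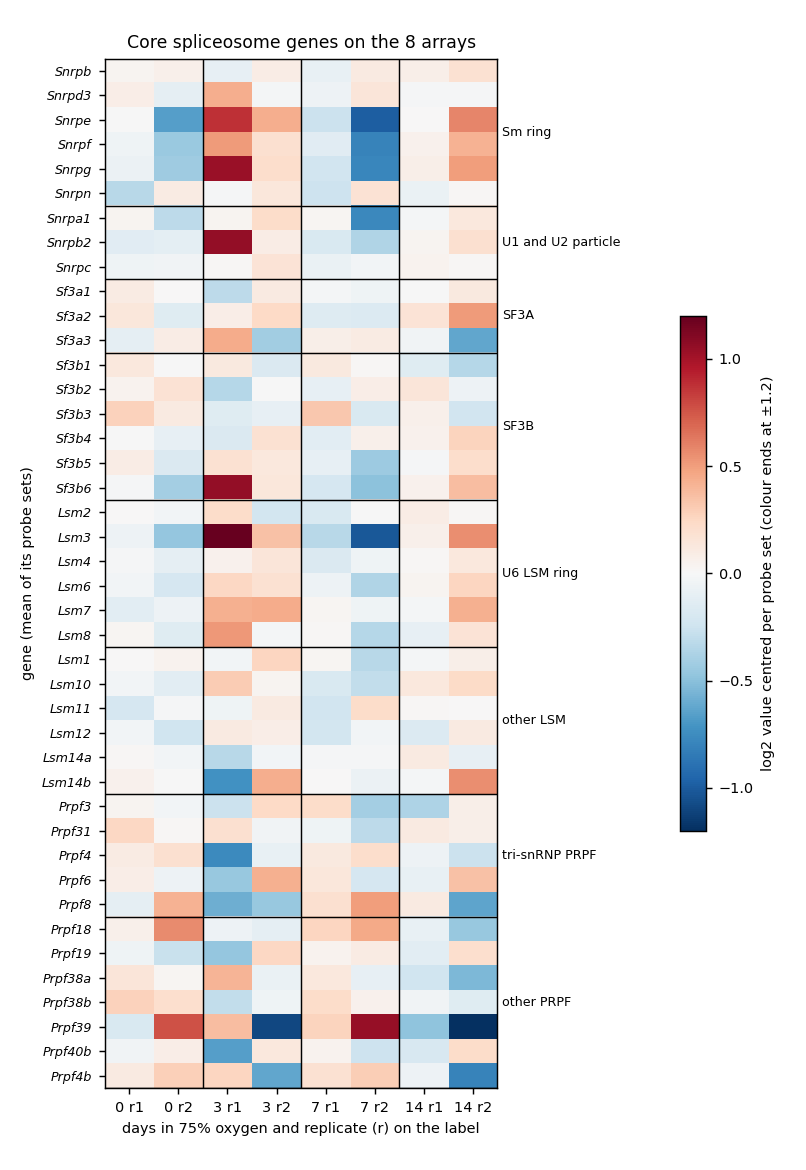
Centred log2 values of the 42 members (rows, by role) on the 8 arrays (columns, day 0, 3, 7 and 14 with replicates 1 and 2); red is above and blue below the median of the gene's probe sets over the arrays, and the colour scale ends at 1.2 on either side. Several Sm and U6 LSM ring genes are red on day 3 replicate 1 and blue on day 7 replicate 2, and *Prpf39* and *Prpf4b* are blue on day 3 replicate 2 and day 14 replicate 2.

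By role, the differences pointed in unlike directions. Of the 12 Sm and U6 LSM ring genes, 11 were higher at day 3 (median 0.32) and 11 at day 14 (median 0.20), with 10 higher at day 3 and 11 or 12 at day 14 under the other scalings tried. Of the 12 PRPF genes, 10 were lower at day 3 (median -0.33) and 10 at day 14 (median -0.32), under each scaling. At day 7, 9 of the 12 ring genes were lower (median -0.088). The PRPF genes then divided into 6 higher and 6 lower (median -0.015), or 3 higher and 9 lower after a further quantile normalization. With the arrays of doubtful label left out, day 3 replicate 2 and day 14 replicate 1, 11 ring genes were higher at day 3 (median 0.49) and 11 at day 14 (median 0.30), and 8 PRPF genes were lower at day 3 (median -0.34) and 8 at day 14 (median -0.39). None of these lists was tested as a set, and genes measured on the same arrays are not independent of one another.

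The Sm ring is the platform on which an snRNP matures, and its subunits SmE, SmF and SmG, encoded by *Snrpe*, *Snrpf* and *Snrpg*, enter it as a preformed unit. *Snrpe* had centred log2 values of -0.0011 and -0.66 at day 0, 0.88 and 0.44 at day 3, -0.26 and -0.99 at day 7, with 0.0011 and 0.59 at day 14. *Snrpg* had -0.068 and -0.43 at day 0, 1.03 and 0.21 at day 3, -0.23 and -0.79 at day 7, with 0.068 and 0.50 at day 14. *Snrpf* had -0.056 and -0.45 at day 0, 0.51 and 0.20 at day 3, -0.13 and -0.80 at day 7, with 0.056 and 0.42 at day 14. All 3 genes had their highest value on day 3 replicate 1 and their lowest on day 7 replicate 2, both arrays of day 3 and of day 14 lay above both day 0 arrays, and those of day 7 overlapped with day 0. At day 3 the differences from day 0 were 0.99 for *Snrpe* (SE 0.34, 95% interval 0.18 to 1.80, limma adjusted p = 0.427), 0.87 for *Snrpg* (SE 0.32) and 0.60 for *Snrpf* (SE 0.26). At day 14 they were 0.63, 0.53 and 0.49, and at day 7 they were -0.29, -0.26 and -0.22, with all 6 intervals spanning 0. 

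The remaining Sm genes had small differences. *Snrpd3*, which encodes the ring subunit SmD3, differed by 0.22 at day 3, 0.058 at day 7 and -0.0018 at day 14. *Snrpb*, for SmB, differed by -0.056, -0.039 and 0.084 at days 3, 7 and 14. *Snrpn*, for the SmN protein that takes the place of SmB in neurons, differed by 0.18, 0.084 and 0.086 on its 1 probe set of a single symbol. Another 6 probe sets name *Snrpn* together with *Snurf*, which shares its transcript, and the rule leaves them out. Their day 14 differences ran between -0.72 and 0.046. *Snrpd1* and *Snrpd2*, the ring subunits SmD1 and SmD2, are measured only by probe sets that also name a second gene and so are no members. These probe sets differed by 0.70 and 0.56 at day 3, -0.28 and -0.33 at day 7, with 0.18 and 0.40 at day 14.

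The LSM ring binds the end of U6 RNA and helps it pair with U4. *Lsm3* had the largest difference of all members at day 3. Its values were -0.059 and -0.47 at day 0, 1.43 and 0.35 at day 3, -0.33 and -1.02 at day 7, with 0.059 and 0.56 at day 14. The highest of these arrays was again day 3 replicate 1 and the lowest day 7 replicate 2, and the arrays of day 3 and of day 14 did not overlap with those of day 0. The difference was 1.16 at day 3 (SE 0.39, 95% interval 0.23 to 2.08, limma adjusted p = 0.427), -0.41 at day 7 (SE 0.39) and 0.57 at day 14 (SE 0.39). Without day 3 replicate 1 it was 0.62 at day 3, and without day 3 replicate 2 it was 1.69. 

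*Lsm7*, a further subunit of the ring, had the smallest limma p of the members at day 3. It read -0.13 and -0.058 at day 0, 0.43 and 0.44 at day 3, 0.025 and -0.052 at day 7, with -0.025 and 0.42 at day 14. Unlike *Lsm3*, its day 3 arrays lay close to each other, and they were above both arrays of day 0 and of day 7. The difference was 0.53 at day 3 (SE 0.16, 95% interval 0.14 to 0.91, limma adjusted p = 0.427), 0.079 at day 7 and 0.29 at day 14. The other ring genes *Lsm6*, *Lsm8*, *Lsm4* and *Lsm2* were higher by 0.33, 0.31, 0.16 and 0.017 at day 3 and by 0.26, 0.097, 0.13 and 0.063 at day 14, with intervals that span 0. *Lsm5*, a further subunit, is measured only by 1 probe set that also names a second gene and is no member. This probe set read 1.96 and 0.18 at day 3, against 0.064 and -0.77 at day 0, a difference of 1.42.

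**Figure D2:**
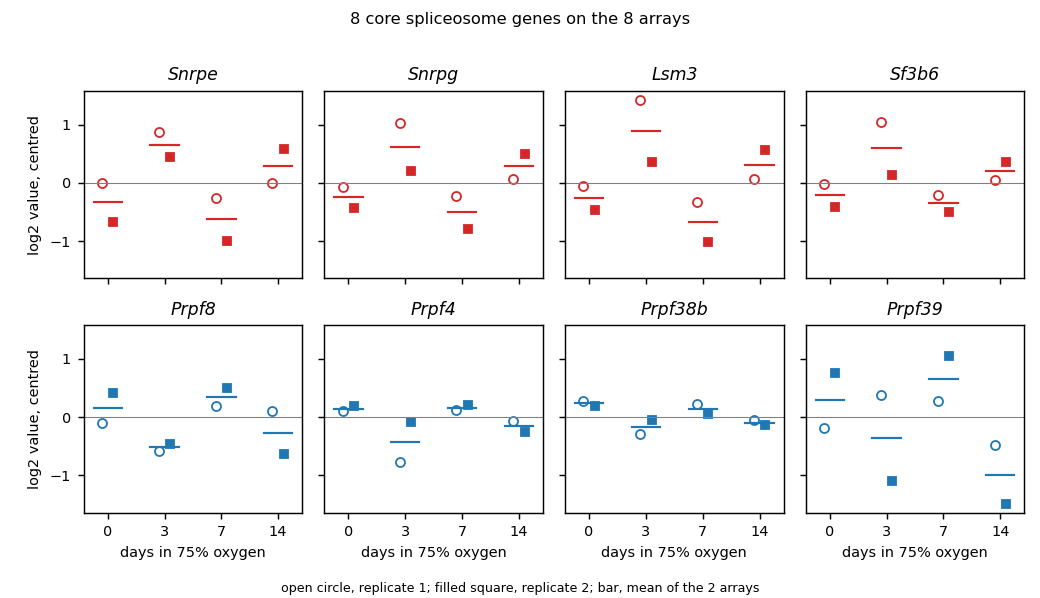
Centred log2 values of 8 members on each array against days in 75% oxygen; open circles are replicate 1, filled squares replicate 2 and bars the mean of both. *Snrpe*, *Snrpg*, *Lsm3* and *Sf3b6* (top) have their highest array at day 3 and their lowest at day 7, while for *Prpf8*, *Prpf4* and *Prpf38b* (bottom) both day 3 arrays lie below both day 0 arrays.

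Among the other proteins of the U1 and U2 snRNPs, *Snrpb2*, which encodes a U2 protein that binds the U2 RNA, read -0.14 and -0.12 at day 0, 1.06 and 0.094 at day 3, -0.18 and -0.36 at day 7, with 0.035 and 0.19 at day 14. Both arrays of day 3 and of day 14 were above day 0 and both of day 7 below it, and the distance at day 3 lay mainly on replicate 1. The difference at day 3 was 0.70 (SE 0.28, 95% interval 0.031 to 1.37, limma adjusted p = 0.447). Without day 3 replicate 2 it was 1.18, and *Snrpb2* was then the 1 member that passed (limma adjusted p = 0.0474), among 100 genes or 0.550% of all. That fit leaves 1 array at day 3 and takes it to vary like the other groups. *Snrpa1*, its partner on the U2 RNA, differed by 0.27 at day 3, -0.24 at day 7 and 0.19 at day 14, and *Snrpc*, of the U1 snRNP, by 0.14, -0.0068 and 0.079.

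The SF3A trimer joins U2 to the intron. Its gene *Sf3a2* read 0.13 and -0.14 at day 0, 0.077 and 0.24 at day 3, -0.156 and -0.161 at day 7, with 0.16 and 0.52 at day 14. The day 14 arrays lay above both day 0 arrays and the day 7 arrays just below them, with differences of 0.34 (SE 0.17, limma adjusted p = 0.627) and -0.15 (SE 0.17). *Sf3a1* differed by -0.16 at day 3 and 0.0055 at day 14, and *Sf3a3* differed by 0.023 at day 3, 0.090 at day 7 and -0.32 at day 14. SF3B, the larger subcomplex that grips the branch point, held genes of both directions. *Sf3b6*, whose protein touches the branch point adenosine, read -0.017 and -0.40 at day 0, 1.05 and 0.14 at day 3, -0.20 and -0.49 at day 7, with 0.049 and 0.37 at day 14. As for the ring genes, day 3 replicate 1 was highest and day 7 replicate 2 lowest, and the day 3 difference was 0.81 (SE 0.31, 95% interval 0.084 to 1.53, limma adjusted p = 0.432). 

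The large scaffold subunits of SF3B did not share that direction. *Sf3b1*, the central scaffold, read -0.15 and -0.34 at day 14, against 0.12 and -0.0066 at day 0, so that both day 14 arrays were below day 0, and the difference was -0.30 (SE 0.15, limma adjusted p = 0.627). *Sf3b3*, which forms a scaffold with it, differed by -0.31 at day 3 and -0.28 at day 14, and *Sf3b2* by -0.28 and -0.067. The small subunits *Sf3b4* and *Sf3b5* differed by 0.060 and 0.20 at day 3 and by 0.21 and 0.14 at day 14, and *Sf3b5* by -0.22 at day 7. 

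The 6 LSM genes outside the U6 ring had medians of 0.11, -0.034 and 0.11 at days 3, 7 and 14. *Lsm10*, of the U7 particle, read -0.028 and -0.12 at day 0, 0.30 and 0.028 at day 3, -0.18 and -0.30 at day 7, with 0.13 and 0.23 at day 14. Its arrays at day 3 and day 14 lay above day 0 and those of day 7 below, with differences of 0.24 and 0.25 at days 3 and 14 and -0.16 at day 7 (SE 0.14 each). *Lsm1*, of the decay ring, was -0.18 at day 7 (SE 0.17), and *Lsm14b* had the widest split between replicates of this group, with -0.73 and 0.44 at day 3.

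The PRPF genes of the tri-snRNP are the 5 retinitis pigmentosa genes. Their medians were -0.058, -0.044 and -0.15 at days 3, 7 and 14, nearer to 0 at days 3 and 14 than those of the other PRPF genes given below. All 5 differences at day 3 were below 0, those of *Prpf3*, *Prpf6* and *Prpf31* by less than their SE, and that of *Prpf6* was 0.043 after a further quantile normalization. *Prpf8*, whose protein sits at the centre of the active spliceosome, read -0.11 and 0.42 at day 0, -0.58 and -0.45 at day 3, 0.19 and 0.50 at day 7, with 0.11 and -0.64 at day 14. Both day 3 arrays were below both day 0 arrays, while at day 14 only replicate 2 was. The difference was -0.67 at day 3 (SE 0.28, 95% interval -1.33 to -0.017, limma adjusted p = 0.450), 0.19 at day 7 and -0.42 at day 14, and the last was -0.050 without day 14 replicate 2.

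*Prpf4*, a U4/U6 protein, read 0.10 and 0.20 at day 0, -0.77 and -0.087 at day 3, 0.12 and 0.21 at day 7, with -0.063 and -0.26 at day 14. Both arrays of day 3 and both of day 14 were below day 0, with the lowest on day 3 replicate 1. The differences were -0.58 at day 3 (SE 0.22, 95% interval -1.09 to -0.058, limma adjusted p = 0.433), 0.015 at day 7 and -0.31 at day 14.

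The other 3 disease genes showed no difference larger than its SE at day 3 or day 14. *Prpf31*, which is needed to form the tri-snRNP, read 0.25 and 0.016 at day 0, 0.19 and -0.041 at day 3, -0.051 and -0.32 at day 7, with 0.11 and 0.069 at day 14. Both day 7 arrays were below day 0, with a difference of -0.32 (SE 0.16, 95% interval -0.69 to 0.052, limma adjusted p = 0.9998). This was the smallest unadjusted p of a member at that time, and the differences at days 3 and 14 were -0.058 and -0.045. *Prpf6*, which bridges the U5 and U4/U6 snRNPs, read 0.083 and -0.060 at day 0, -0.45 and 0.42 at day 3, 0.14 and -0.20 at day 7, with -0.087 and 0.35 at day 14. Its day 3 replicates lay on opposite sides of day 0, and its differences were -0.027, -0.044 and 0.12 (SE 0.30 each).

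*Prpf3*, a further U4/U6 protein, was measured in the study by quantitative PCR as well. Its 1 annotated probe set read 0.037 and -0.037 at day 0, -0.26 and 0.24 at day 3, 0.22 and -0.41 at day 7, with -0.37 and 0.071 at day 14. At each time in hyperoxia the replicates lay on both sides of the day 0 mean, and the differences were -0.0088, -0.095 and -0.15 at days 3, 7 and 14 (SE 0.27, day 14 interval -0.77 to 0.48, limma adjusted p = 0.861). A further probe set, which the study lists for this gene, has no gene in the annotation used here and is not part of the gene mean. It read 0.16 and -0.088 at day 0, 0.77 and -0.77 at day 3, 0.96 and -0.35 at day 7, with 0.046 and -0.046 at day 14, with differences of -0.036, 0.27 and -0.036 (SE 0.57). The study, on MAS5 values, lists this probe set as lower by more than 2-fold at day 14. Its quantitative PCR did not show that change, and neither do the deposited values.

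The 7 PRPF genes outside the tri-snRNP had medians of -0.38, 0.039 and -0.47 at days 3, 7 and 14. *Prpf38b*, related to the factor that activates the assembled spliceosome, had the smallest SE of these genes. It read 0.28 and 0.20 at day 0, -0.29 and -0.054 at day 3, 0.22 and 0.054 at day 7, with -0.043 and -0.14 at day 14. All 4 arrays of days 3 and 14 were below all others, and the differences were -0.41 at day 3 (SE 0.14, 95% interval -0.74 to -0.089, limma adjusted p = 0.427) and -0.33 at day 14 (SE 0.14, 95% interval -0.66 to -0.0078, limma adjusted p = 0.621).

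*Prpf18*, a factor of the second step of splicing, read 0.064 and 0.57 at day 0, -0.064 and -0.11 at day 3, 0.26 and 0.46 at day 7, with -0.089 and -0.45 at day 14. The arrays of days 3 and 14 were again all below those of days 0 and 7, and the differences were -0.40 at day 3 (SE 0.20) and -0.59 at day 14 (SE 0.20, 95% interval -1.07 to -0.10, limma adjusted p = 0.615). Without day 0 replicate 2 the day 14 difference was -0.34. *Prpf38a*, of the same family as *Prpf38b*, read 0.14 and 0.020 at day 0, 0.40 and -0.083 at day 3, 0.13 and -0.10 at day 7, with -0.24 and -0.54 at day 14, so that only at day 14 were both arrays below day 0, with a difference of -0.47 (SE 0.20, limma adjusted p = 0.621).

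*Prpf39*, a U1 snRNP protein that takes part in the choice of splice sites, had the widest range of the members. Its values were -0.18 and 0.76 at day 0, 0.37 and -1.09 at day 3, 0.27 and 1.05 at day 7, with -0.48 and -1.49 at day 14. Both day 14 arrays were below both day 0 arrays, with a difference of -1.28 (SE 0.58, 95% interval -2.65 to 0.095, limma adjusted p = 0.627), and the day 3 replicates lay far apart. The day 3 difference was -0.65 (SE 0.58) and turned to 0.082 without day 3 replicate 2, and the day 7 difference of 0.37 turned to -0.10 without day 0 replicate 1. *Prpf4b*, a kinase of spliceosome proteins, read 0.11 and 0.29 at day 0, 0.26 and -0.63 at day 3, 0.18 and 0.30 at day 7, with -0.059 and -0.80 at day 14, again with its low values on replicate 2 of days 3 and 14, and differed by -0.63 at day 14 (SE 0.33, limma adjusted p = 0.631). That difference was -0.26 without day 14 replicate 2. *Prpf19*, the ubiquitin ligase of the complex named after it, and *Prpf40b*, which is related to a yeast U1 protein, differed by 0.053 and -0.29 at day 3 and by 0.20 and -0.0054 at day 14. *Prpf19* differed by 0.23 at day 7 (SE 0.24).

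**Figure D3:**
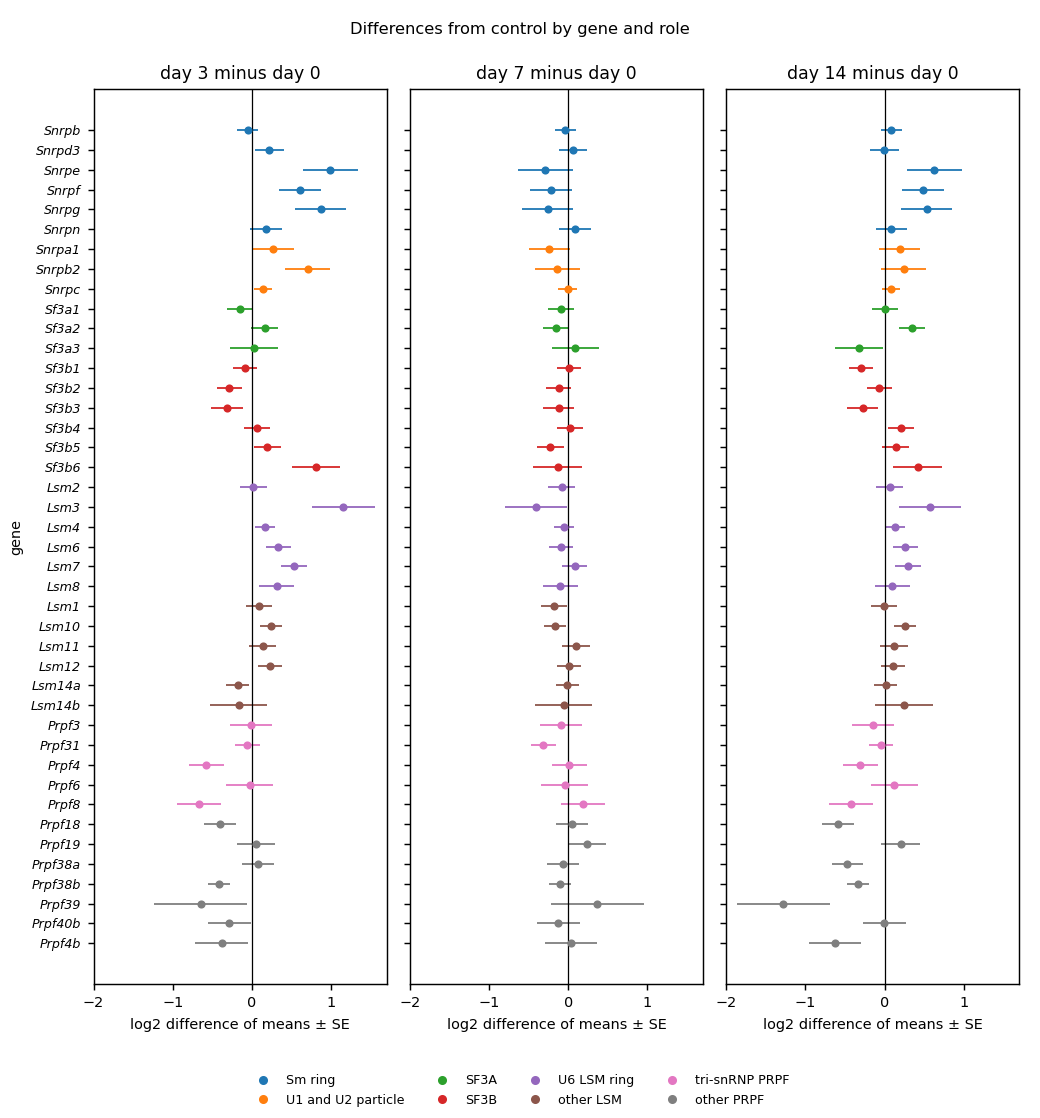
Differences of the mean of each time in hyperoxia from the mean of day 0 on the log2 scale (points, n = 2 arrays each, with the SE from limma as bars) for the 42 members by role. At day 3 the points span -0.67 (*Prpf8*) to 1.16 (*Lsm3*), at day 7 -0.41 to 0.37 and at day 14 -1.28 (*Prpf39*) to 0.63 (*Snrpe*).

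Probe sets of 1 gene did not always differ from day 0 in the same direction. Of the 29 members with more than 1 probe set, 16 had probe sets of both signs at day 3 and 12 at day 14. By the SD between probe sets, averaged over the arrays, the widest spreads were those of *Sf3a3*, *Prpf39*, *Prpf4b* and *Snrpd3*. For *Sf3a3*, the probe sets differed by -0.015 and -0.63 at day 14. All 3 probe sets of *Prpf39* were lower at both times, by -0.87 to -0.30 at day 3 and -1.46 to -1.05 at day 14. The 6 probe sets of *Prpf4b* ran between -0.97 and 0.23 at day 3 and between -1.14 and -0.19 at day 14, and those of *Snrpd3* between -0.27 and 0.43 at day 14. At day 3, *Lsm8* differed by 0.94 on one probe set and -0.31 on the other, *Lsm1* by 0.53 and -0.36, and *Prpf38a* by -0.35 to 0.58 over its 3. Those of *Prpf38a* also parted at day 14, from -0.88 to 0.18. The 4 probe sets of *Prpf38b* ran between -0.61 and 0.079 at day 3 and between -0.58 and -0.029 at day 14. By contrast, both probe sets of *Snrpg* gave 0.86 and 0.88 at day 3, both of *Prpf4* -0.60 and -0.55, and all 4 of *Sf3b6* between 0.49 and 1.06. *Snrpe* has only a probe set marked as one that can bind related transcripts.

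**Figure D4:**
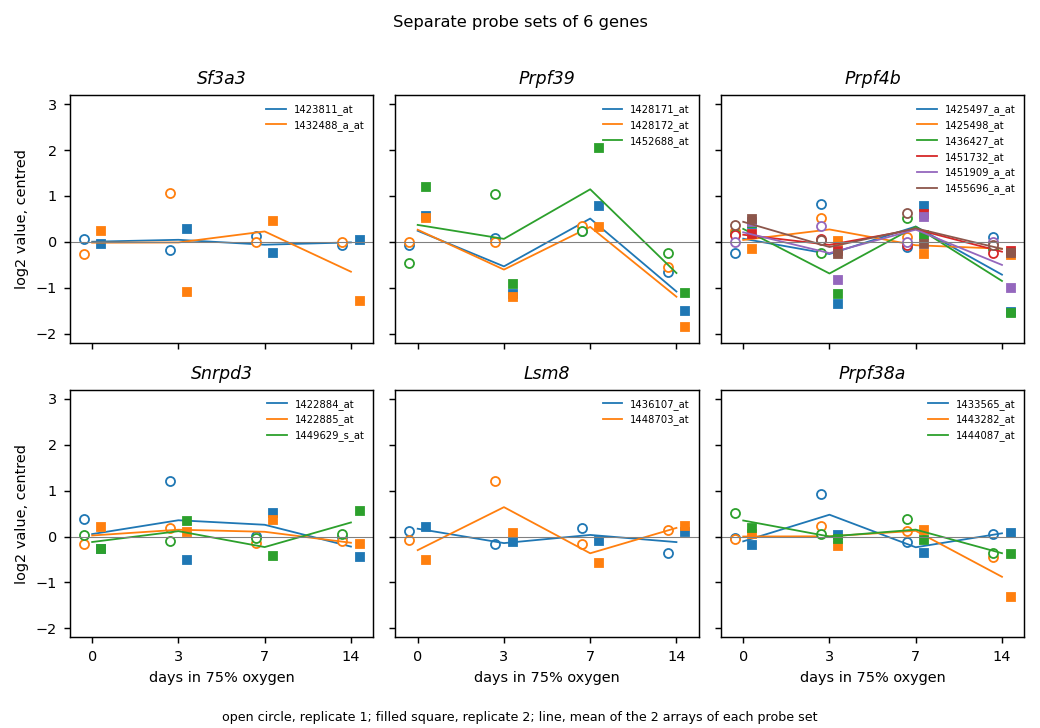
Centred log2 values of the separate probe sets (colours) of *Sf3a3*, *Prpf39*, *Prpf4b*, *Snrpd3*, *Lsm8* and *Prpf38a* against days in 75% oxygen; open circles are replicate 1, filled squares replicate 2, and lines join the means of both. The probe sets of *Prpf39* follow one course, with means at day 14 below day 0 on all 3, while those of *Lsm8* part at day 3, where they differed from day 0 by 0.94 and -0.31.

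The arrays that carried these differences also stood apart in other measures. Day 3 replicate 1 held the highest value of 13 members (20.3% of all genes) and the lowest of 11 (21.4% of all genes). Its mean on the poly-A controls that are added to the RNA was 2.40, against -0.67 to 0.74 on the other arrays. Day 7 replicate 2 held the lowest value of 15 members (20.7% of all genes). The median of 9 lens genes was 3.48 on it and 2.49 on day 7 replicate 1, against -4.02 to 2.07 elsewhere. For 5 pigment epithelium genes the median was 1.94 on day 7 replicate 2 and -0.40 to 0.60 elsewhere. The median of 5 cornea genes ran from -1.64 on day 3 replicate 1 to 2.04 on day 0 replicate 2. *Prpf39* and *Prpf4b* were lowest on day 3 replicate 2 and day 14 replicate 2, the arrays that stood apart in the *Gapdh* ends. The median of 10 microglia and macrophage genes was 1.42 and 1.34 there and -0.27 to 0.31 on the others, and all 10 of these genes were higher at days 3 and 14 than at day 0. Most listed markers of bipolar cells, rods, and Müller glia and astrocytes were lower at days 3 and 14, as most PRPF genes were. The median of 5 bipolar cell genes was 0.13 and 0.27 at day 0, -0.37 and -0.48 at day 3, 0.13 and 0.20 at day 7, with -0.13 and -0.72 at day 14, so that all arrays of days 3 and 14 were below those of days 0 and 7. At day 3 all 5 of these genes were lower (median difference -0.52), as were 9 of 10 rod genes (-0.33) and 4 of 5 genes of Müller glia and astrocytes (-0.27), and at day 14 4, 8 and 4 were lower (-0.66, -0.18 and -0.35). The 7 cone genes divided into 3 higher and 4 lower at day 3 and 4 higher and 3 lower at day 14. All 8 genes of a gliosis list were higher at both times, with a median difference of 0.76 at day 3 and 0.96 at day 14. By array, their median was -0.25 and -0.18 at day 0, -0.075 and 1.10 at day 3, with 0.15 and 0.995 at day 14. The high values thus lay on replicate 2 of both times. Both arrays lay above both day 0 arrays for 4 of these genes at day 3 (28.2% of all genes) and 7 at day 14 (33.5%). The part of these measures in the differences of the spliceosome genes was not tested. By array, the median of the 12 ring genes was -0.025 and -0.13 at day 0, 0.43 and 0.17 at day 3, -0.15 and -0.20 at day 7, with 0.024 and 0.22 at day 14, so all 4 arrays of days 3 and 14 lay above both day 0 arrays. The median of the 12 PRPF genes was 0.074 and 0.14 at day 0, -0.28 and -0.069 at day 3, 0.16 and 0.076 at day 7, with -0.088 and -0.20 at day 14, with all 4 arrays of days 3 and 14 below all 4 of days 0 and 7. Without day 3 replicate 2, 11 of the 12 ring genes were higher and 8 of the 12 PRPF genes lower at day 3, and without day 3 replicate 1, 10 and 8 were. Without day 14 replicate 2, 10 ring genes were higher (median 0.089) and 11 PRPF genes lower (median -0.23) at day 14. At day 7 the ring genes divided into 6 higher and 6 lower without either day 7 array. When day 3 replicate 2 and day 14 replicate 1 were both left out, the day 3 difference was 1.26 for *Sf3b6*, 1.69 for *Lsm3*, -0.91 for *Prpf4* and 0.082 for *Prpf39*, and the day 14 difference was -0.79 for *Prpf8*, -1.002 for *Prpf4b* and 0.52 for *Sf3a2*.

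Genes with a symbol that begins with Rpl or Rps and a digit were listed by name as cytosolic ribosomal proteins. The list was not checked for genes outside the ribosome. Its medians were 0.26, -0.16 and 0.20 at days 3, 7 and 14 over 54 genes, of which 46 were higher, 44 lower and 48 higher than at day 0. The SR, hnRNP and RBM genes, which include regulators of the choice of splice sites, were also taken by the start of their symbols. *Rbm22* among them is on the list of other splicing genes below as well. Their medians were -0.13, 0.019 and -0.063 over 72 genes, of which 47 were lower, 44 higher and 43 lower. Neither was set against the spliceosome genes in a test.

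**Figure D5:**
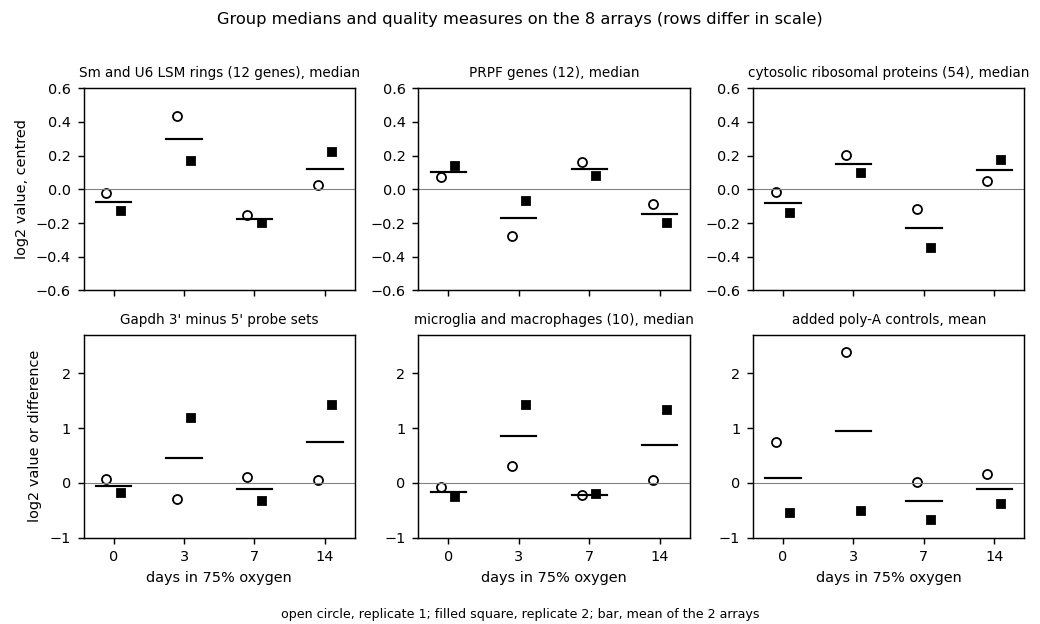
Medians of the 12 ring genes, 12 PRPF genes and 54 genes listed by symbol as cytosolic ribosomal proteins (top, centred log2 values) and the *Gapdh* end difference, the median of 10 microglia and macrophage genes and the poly-A control mean (bottom, on a wider log2 scale) on each array against days in 75% oxygen. Open circles are replicate 1, filled squares replicate 2 and bars the mean of both. The ring medians of days 3 and 14 lie above both day 0 arrays and the PRPF medians below them, and the *Gapdh* difference is high on replicate 2 of days 3 and 14 (1.19 and 1.43).

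Between the times in hyperoxia, 0 members and 0 genes passed in limma (lowest adjusted p of a member 0.285 for day 7 against day 3, 0.983 for day 14 against day 3 and 0.410 for day 14 against day 7). At an unadjusted p under 0.05 day 7 was lower than day 3 for 10 members (8.76% of all genes) and higher for 2 (5.65%). Day 14 was lower than day 3 for *Prpf38a* alone (1.08% of all genes lower and 2.01% higher), and day 14 was higher than day 7 for 6 members (6.83%) and lower for 2 (4.62%). These comparisons include day 3 replicate 2 and day 14 replicate 1, whose labels are in doubt, and were not repeated without them. Day 14 against day 3 rests on both labels, so its few differences do not show that these times were alike. In day 7 against day 3, *Lsm3* differed by -1.57, *Snrpe* by -1.28, *Snrpg* by -1.13 and *Sf3b6* by -0.94, while *Prpf8* differed by 0.86 and *Prpf4* by 0.59. In day 14 against day 7, *Prpf39* differed by -1.65 and *Prpf18* by -0.63, and *Lsm3* and *Snrpe* by 0.98 and 0.92.

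The rest of the splicing pathway was read from a list of 57 genes that the rule does not take, of which 50 were measured. Their medians were 0.059, -0.083 and 0.045 at days 3, 7 and 14, with 31, 14 and 30 of the 50 higher than at day 0, and 0 passed the adjusted p in limma. At an unadjusted p under 0.05 there were 1 higher and 2 lower at day 3 (6.38% and 4.61% of all genes), 0 at day 7, and 0 higher and 2 lower at day 14 (4.45% and 3.56%). *Snrnp70*, the U1 protein that recognises the start of the intron together with the U1 RNA, differed by -0.63 at day 3 (SE 0.14, limma adjusted p = 0.427) and -0.51 at day 14 (SE 0.14, limma adjusted p = 0.595). *Sf1*, which binds the branch point before U2 does, differed by -0.41 at day 3, *Bud31*, of the activated spliceosome, by 0.55 at day 3, and *Cwc22*, which links splicing to the exon junction complex, by -0.90 at day 14 (SE 0.20, limma adjusted p = 0.588). Of 15 genes that assemble snRNPs, such as those of the SMN complex, 13 were measured, with medians of -0.12, -0.0020 and 0.020. Among these, *Tgs1*, which modifies the cap of snRNAs, differed by -0.56 at day 14 (SE 0.22).

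The median of the 42 members on each array was 0.0086 and -0.036 at day 0, 0.064 and 0.11 at day 3, -0.037 and -0.054 at day 7, with -0.010 and 0.11 at day 14. The genes outside the machinery whose values over the 8 arrays were most like this median were *Marchf11* (Pearson r = 0.988), *Tmem178* (0.987), *Hmx1* (0.986), *Tpbpa* (0.985) and *Ly86* (0.984). These are the highest of all genes on only 8 shared arrays and are given as a description. The values of *Ly86* spanned -1.12 to 2.10, far wider than the members' median.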

How the data were processed

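The authors computed log2 values with RMA (version not stated), that is, background correction, quantile normalization and a summary of the probes of each set. The deposited values are also centred on the median of each probe set, a step that no source used here describes. Of 45101 probe sets, 64 were controls, 34945 name 1 gene, 932 several and 9160 none in the platform annotation. The number of arrays limits the precision.

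Gene means were analysed in R 4.3.3 with lmFit and eBayes of limma 3.58.1 (a model of 4 group means over 8 arrays, 4 residual and 3.12 prior degrees of freedom). Benjamini-Hochberg adjustment covered 18193 genes, with a threshold of 0.05. An exact two-sided permutation test of 2 against 2 arrays cannot give a p below 0.333. All 42 members matched RefSeq by gene ID and symbol. Promoters were read in Python 3.11.15 with pandas 2.3.3.

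The members and lists were chosen with earlier results of these data known. Named members are, per comparison, the 6 with the smallest p and the 3 with the largest difference in each direction, the 5 retinitis pigmentosa genes, and the 4 with the largest mean SD between probe sets; others were named after their values were seen. Likeness was ranked by Pearson r. Alternatives were other scalings, a replicate block, robust eBayes, other summaries of probe sets, probe sets as features, fits of 2 groups, leaving out arrays and the methods' test. Leaving out day 3 replicate 2 and day 14 replicate 1 together was chosen after seeing the data. The quantitative PCR of the study was not analysed here.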

Additional observations from a re-analysis of the deposited data

Results flagged for a closer look

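For 3 members, both arrays of a late or early time lay above both control arrays while both day 7 arrays lay below them, so the groups pointed in opposite directions. *Snrpb2* differed from day 0 by 0.70 at day 3 and 0.24 at day 14, against -0.14 at day 7. *Lsm10* differed by 0.24 at day 3 and 0.25 at day 14, against -0.16 at day 7. *Sf3a2* differed by 0.34 at day 14, against -0.15 at day 7. Of all genes, 28.2% lay above both control arrays at day 3, 33.5% lay above them at day 14 and 13.1% lay below them at day 7. The share of all genes that met such a pair of rules was not counted. This sorting by side is not a test. In limma, the direct difference of day 7 and day 3 was -0.84 for *Snrpb2* (adjusted p = 0.294) and -0.40 for *Lsm10* (adjusted p = 0.294), and that of day 14 and day 7 was 0.38 for *Snrpb2* (adjusted p = 0.587), 0.42 for *Lsm10* (adjusted p = 0.412) and 0.50 for *Sf3a2* (adjusted p = 0.412).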

How the results depend on the processing

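With 2 arrays a time, 0 members were called under each alternative except leaving out 1 array (0 to 1 members at day 3, the 1 being *Snrpb2* without day 3 replicate 2) and the methods' test before adjustment, which gave 1 member at day 3 and 2 at day 14. With the replicate number as a block, 0 members were called at each time. The correlations of the replicate differences between times ran from -0.30 to 0.46 and exceeded 0.1 for 2 of the 6 pairs of times, so replicate numbers were not taken to pair the arrays. The study sorts its arrays into experiments that span all times, and the labels do not say whether replicate numbers follow them. A filter on low signal could not be run on values without a level. Where 1 array of a time was left, its spread was taken from the other groups.

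With probe sets in place of genes, which counts more features, both arrays lay above day 0 for 30, 5 and 35 of the 103 probe sets at days 3, 7 and 14 (24.7%, 12.3% and 27.7% of all) and below for 20, 10 and 19 (17.8%, 12.3% and 18.3%), and 16 at day 3 (10.3% of all) and 9 at day 14 (8.27%) had an unadjusted p under 0.05. In fits of the compared groups alone, 8 members had one at day 14 (11.3% of all genes). With the probe set of the largest SD for each gene, the median of the members was 0.16 at day 14, and that of the ring genes was 0.57 at day 3 and 0.34 at day 14; the cause was not tested. *Prpf4* at day 7 turned to -0.014 and *Prpf6* at day 3 to 0.043 after a further quantile normalization. *Prpf6* was 0.019 at day 3 on the median of its probe sets and 0.067 at day 7 without probe sets marked as able to bind related transcripts. The leave-out of 1 array at a time gave the following ranges. The count above day 0, for which fewer arrays are easier to meet, ran from 13 to 26, 2 to 14 and 16 to 27 at days 3, 7 and 14, and the count below from 7 to 16, 5 to 22 and 8 to 14. The matching shares of all genes were not counted, so these ranges cannot be set against a background. The median of the members ran from 0.020 to 0.19, -0.10 to -0.021 and 0.028 to 0.14, that of the ring genes from 0.28 to 0.49, -0.14 to -0.012 and 0.089 to 0.30, and that of the PRPF genes from -0.36 to -0.18, -0.061 to 0.0013 and -0.39 to -0.22. *Prpf3* ran from -0.26 to 0.24, -0.41 to 0.22 and -0.37 to 0.071 at days 3, 7 and 14, and *Prpf6* from -0.46 to 0.41, -0.22 to 0.13 and -0.099 to 0.34. *Prpf31* ran from -0.17 to 0.058 at day 3 and -0.16 to 0.071 at day 14, *Prpf39* from -1.38 to 0.082 at day 3 and -0.10 to 0.84 at day 7, *Prpf4* from -0.034 to 0.064, *Prpf8* from -0.073 to 0.45 and *Snrpe* from -0.66 to 0.078 at day 7. At an unadjusted p under 0.05, the count of members ran from 1 (without day 0 replicate 2, 3.98% of all genes) to 15 (without day 3 replicate 2, 19.8%) at day 3 and from 0 (without day 0 replicate 2, 3.64%, or without day 14 replicate 2, 2.27%) to 7 (without day 14 replicate 1, 12.0%) at day 14. Without day 3 replicate 2 and day 14 replicate 1 together, the median of the ring genes was 0.49 at day 3 and that of the members 0.14 at day 14. In the same setting *Prpf31* turned to 0.057 and *Prpf39* to 0.082 at day 3, and *Prpf3* turned to 0.071 at day 14.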
